A study of Schizosaccharomyces pombe with 4 samples.

Results

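A+T-rich islands are stretches of the fission yeast (Schizosaccharomyces pombe) genome in which most replication origins lie. Here an island was a run of overlapping 500 bp windows, stepped by 100 bp, with at least 75% A+T in the reference sequence. No measured value entered this rule, which was set with earlier results of these data known. The search covered 9530 kb of the 3 chromosomes, with the chromosome ends, the surroundings of the centromeres and of the mating-type region, and the outer part of the right arm of chromosome I left out. It found 258 islands, 93 on chromosome I, 121 on chromosome II and 44 on chromosome III. Of these, 256 held at least 1 array probe and 198 held 2 or more, and they took 586 of the 42499 probes used. Islands were 500 to 1300 bp wide (median 600 bp) and made up 1.79% of the sequence searched.

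Fission yeast origins have no consensus sequence. The origin recognition complex binds A+T-rich DNA between genes through the AT-hook repeats of its Orc4 subunit. Rif1 delays the firing of many origins by bringing a protein phosphatase to them. Rad3, the ATR-like checkpoint kinase, activates the kinase Cds1 when forks stall in hydroxyurea and restrains further origins. Rad52 is a homologous recombination protein that acts at breaks and damaged forks.

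Rad52 was measured by chromatin immunoprecipitation (ChIP) on 4 tiling arrays with 60-base probes spaced by a median of 265 bp. Of these, 2 arrays came from cdc25-22 cells that lacked both rif1 and rad3 (rif1Δ rad3Δ) and 2 from cdc25-22 cells that lacked rif1 alone (rif1Δ). All cells thus carried the temperature-sensitive cdc25-22 allele and the rif1 deletion, and cells with intact rif1, untreated cells and a ChIP without Rad52 are not analysed here. Cells in EMM6S medium were held in G2 for 4 h at 36.5 °C, released at 25 °C and given 6 mM hydroxyurea, which starves cells of nucleotides. ChIP DNA carried Cy3 and input DNA Cy5, and every value below is the log2 ratio of ChIP over input, centred so that the median probe of each array is 0. The labels leave unsaid whether a replicate was a culture of its own, and the p-values rest on array-to-array spread that may be only technical. The smallest p that an exact permutation test of 2 arrays against 2 can give is 1/3, so tests come from limma fitted over all features.

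The deleted genes were checked first. Over rad3, input signal reached 1.82% and 0.972% of the array median in rif1Δ rad3Δ, against 79.4% and 78.5% in rif1Δ. Input signal over rif1 lay between 0.867% and 3.48% of the median on all 4 arrays. The labels give the input of the rif1Δ rad3Δ arrays as plain cdc25-22, and the probes of both genes go against that. The first replicates of both strains shared a slide and the second replicates lay on a slide each. Of the island probes, 91.8% and 99.5% were well above background in both channels in rif1Δ rad3Δ, against 83.4% and 96.1% in rif1Δ, and none was saturated.

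The sequence of 6 islands shows what the members have in common and how they differ. Shown are 300 bases of the plus strand around the centre of each, from the RefSeq assembly ASM294v3, with runs of 6 or more A or T in capitals. The first 3 are, among the islands with 2 or more probes, those whose Rad52 signal was highest in rif1Δ rad3Δ relative to rif1Δ. The next is the only island that limma called lower, then come the island highest in rif1Δ and the island nearest to ura4. Each is named by the coding genes on its sides.
SPCC18B5.02C and wee1 (chrIII:719701-720000): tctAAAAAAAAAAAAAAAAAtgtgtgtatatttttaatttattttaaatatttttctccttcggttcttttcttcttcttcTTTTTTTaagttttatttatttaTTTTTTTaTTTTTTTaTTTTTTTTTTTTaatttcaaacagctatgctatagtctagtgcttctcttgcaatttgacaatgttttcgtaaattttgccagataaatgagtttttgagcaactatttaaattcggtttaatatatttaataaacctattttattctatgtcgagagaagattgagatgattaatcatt
abo2 and nrk1 (chrII:1443401-1443700): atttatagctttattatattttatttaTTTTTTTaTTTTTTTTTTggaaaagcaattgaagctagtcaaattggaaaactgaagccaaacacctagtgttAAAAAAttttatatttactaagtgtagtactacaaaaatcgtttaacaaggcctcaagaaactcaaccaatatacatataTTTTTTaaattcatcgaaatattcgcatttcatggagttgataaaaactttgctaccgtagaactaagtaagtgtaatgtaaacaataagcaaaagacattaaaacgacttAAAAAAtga
snu13 and arg82 (chrI:2041801-2042100): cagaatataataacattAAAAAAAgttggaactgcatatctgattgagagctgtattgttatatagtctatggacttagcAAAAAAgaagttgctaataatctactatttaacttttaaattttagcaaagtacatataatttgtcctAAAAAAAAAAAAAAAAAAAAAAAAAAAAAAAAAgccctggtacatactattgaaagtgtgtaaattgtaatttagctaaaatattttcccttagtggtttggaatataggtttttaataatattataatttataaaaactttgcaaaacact
alr2 and aat1 (chrII:110851-111150): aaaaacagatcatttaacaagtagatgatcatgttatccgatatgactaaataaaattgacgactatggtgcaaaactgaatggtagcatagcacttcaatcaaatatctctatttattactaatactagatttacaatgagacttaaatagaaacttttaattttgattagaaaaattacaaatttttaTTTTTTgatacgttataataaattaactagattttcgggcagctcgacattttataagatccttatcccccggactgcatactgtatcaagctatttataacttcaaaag
tef3 and SPCC417.09C (chrIII:1689251-1689550): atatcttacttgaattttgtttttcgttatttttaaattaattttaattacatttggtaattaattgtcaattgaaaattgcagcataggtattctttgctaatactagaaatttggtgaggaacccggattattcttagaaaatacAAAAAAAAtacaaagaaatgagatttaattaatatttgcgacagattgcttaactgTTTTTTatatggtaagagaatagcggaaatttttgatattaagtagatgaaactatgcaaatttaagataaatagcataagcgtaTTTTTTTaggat
pmp20 and SPCC330.07C (chrIII:120401-120700): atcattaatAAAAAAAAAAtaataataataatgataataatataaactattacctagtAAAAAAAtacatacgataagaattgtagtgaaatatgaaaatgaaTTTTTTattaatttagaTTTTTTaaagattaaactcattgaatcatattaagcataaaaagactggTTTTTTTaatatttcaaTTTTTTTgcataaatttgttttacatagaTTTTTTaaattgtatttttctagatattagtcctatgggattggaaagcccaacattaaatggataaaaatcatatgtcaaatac
These 6 stretches held between 72.3% and 81.7% A+T. The island between snu13 and arg82 had a run of 33 adenines, and that between SPCC18B5.02C and wee1 had 5 runs, the longest of 17 bases. The island between alr2 and aat1 had 1 run of 6 bases.

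Runs of 1 base were common in islands. The motif AAAAAAAA or its complement TTTTTTTT was found, on either strand, in the central 500 bp of 207 of 258 islands (80.2%), against 23.1% of all 19058 windows of 500 bp in the sequence searched. Runs of 11 or more were found in 103 islands (39.9%), against 3.75% of all windows. Over their merged length islands held 73.2% to 78.3% A+T (median 75.2%), against a mean of 63.8% over all windows. Since A+T content chose the islands, these shares are a description.

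Islands lay between genes. Of 258, 214 had no base of overlap with a coding gene, and none had its centre in one. Between divergent genes, which are read away from each other, lay 130 islands (50.4%), while 34.2% of the 2558 gaps of 500 bp or more between coding genes were of that kind. Another 100 lay between tandem genes (38.8%, against 51.3% of gaps) and 28 between convergent genes (10.9%, against 14.5%). A tRNA gene lay within 500 bp of 23 islands, a long terminal repeat (LTR) within 500 bp of 14 and an annotated rRNA gene within 500 bp of 9. The next island was a median of 17425 bp away.

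Rad52 ChIP signal at islands was higher in rif1Δ rad3Δ than in rif1Δ. The mean over the 586 island probes was 0.78 and 0.49 in rif1Δ rad3Δ, against 0.20 and -0.014 in rif1Δ. Both arrays of rif1Δ rad3Δ were above both of rif1Δ. The strain means were 0.64 ± 0.21 and 0.095 ± 0.15 (SD, n = 2 arrays each), a difference of 0.54. It was 0.58 between the arrays that shared a slide and 0.51 between the second replicates.

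**Figure D1:**
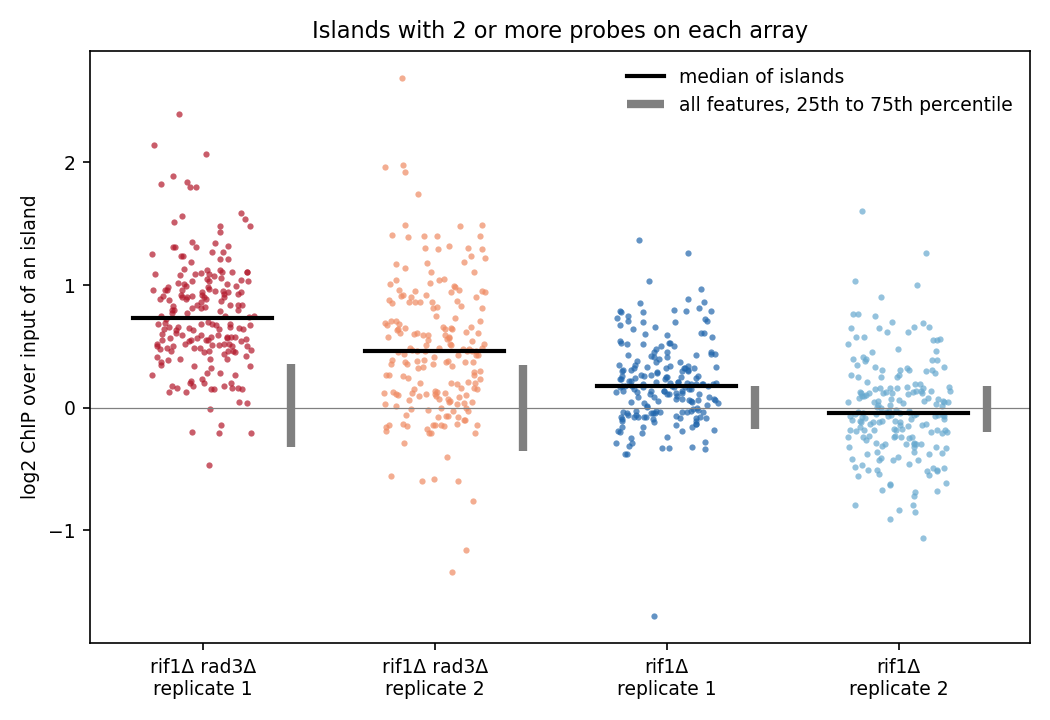
Each point is 1 of the 198 islands with 2 or more probes, and the vertical axis is its mean log2 ChIP over input on 1 of the 4 arrays. Black lines are medians of islands (0.73 and 0.46 in rif1Δ rad3Δ, 0.18 and -0.047 in rif1Δ), and grey bars span the 25th to 75th percentile of all 12120 features.

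The difference lay in the ChIP channel. Relative to the array median, the ChIP signal of island probes was -0.028 and -0.055 on the log2 scale in rif1Δ rad3Δ, against -0.63 and -0.57 in rif1Δ. The input signal of the same probes was -0.80 and -0.53 in rif1Δ rad3Δ, against -0.82 and -0.51 in rif1Δ. Input was thus low at islands on all 4 arrays, by the same amount in both strains within the spread between replicates.

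Island by island, limma was fitted to 12120 features, which were the 198 islands with 2 or more probes and the 1 kb bins of all other probes, with p-values adjusted by the Benjamini-Hochberg method over all of them. At an adjusted p below 0.05, 124 of 198 islands (62.6%) were enriched over the array median in rif1Δ rad3Δ, where 24.3% of all features were, and 11 islands (5.56%) were enriched in rif1Δ, where 3.89% of all features were. All 11 were also enriched in rif1Δ rad3Δ. Signal was higher in rif1Δ rad3Δ than in rif1Δ at 63 islands (31.8%, against 9.91% of all features) and lower at 1 (0.505%, against 7.63%). Of the 63, 62 were also enriched in rif1Δ rad3Δ, which is 98.4% of the 63 and 62 of the 124. Both calls rest on the same 2 rif1Δ rad3Δ arrays, so much of this overlap is built in. Neither this overlap nor that of the 11 was counted over all features. In rif1Δ rad3Δ 1 island was depleted (24.1% of all features were), and in rif1Δ limma called 0 islands depleted (0.809% of all features were). In rif1Δ 5 of 198 islands were below 0 at limma's unadjusted p below 0.05. That count was not made over all features, so no depletion is read from it. The count of higher islands depended on single arrays and on scaling, with 31 (15.7%, against 4.43% of all features) without replicate 1 of rif1Δ rad3Δ, 35 (17.7%, against 5.32%) without replicate 2 of rif1Δ and 21 (10.6%, against 3.99%) when all arrays were scaled to one spread. Without replicate 1 of rif1Δ rad3Δ, 79 islands (39.9%, against 15.9%) were enriched in that strain, and without replicate 1 of rif1Δ, 6 (3.03%, against 2.38%) were enriched in rif1Δ.

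The 63 islands that were higher in rif1Δ rad3Δ differed by 0.55 to 2.19 on the log2 scale (median 0.89), with limma's adjusted p between 0.00463 and 0.0494. They were spread over the genome, with 22 on chromosome I, 30 on chromosome II and 11 on chromosome III. Both rif1Δ rad3Δ arrays were above both rif1Δ arrays at 124 of 198 islands (62.6%, against 30.8% of all features) and below both at 4 (2.02%, against 33.6%). Over the 198 islands the median difference was 0.52, from -0.83 to 2.19, and over all features it was -0.023. The 58 islands with a single probe were not tested, and their difference had a median of 0.73 and was positive at 54. It was positive at 47.9% of all features, which hold 2 or more probes each.

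**Figure D2:**
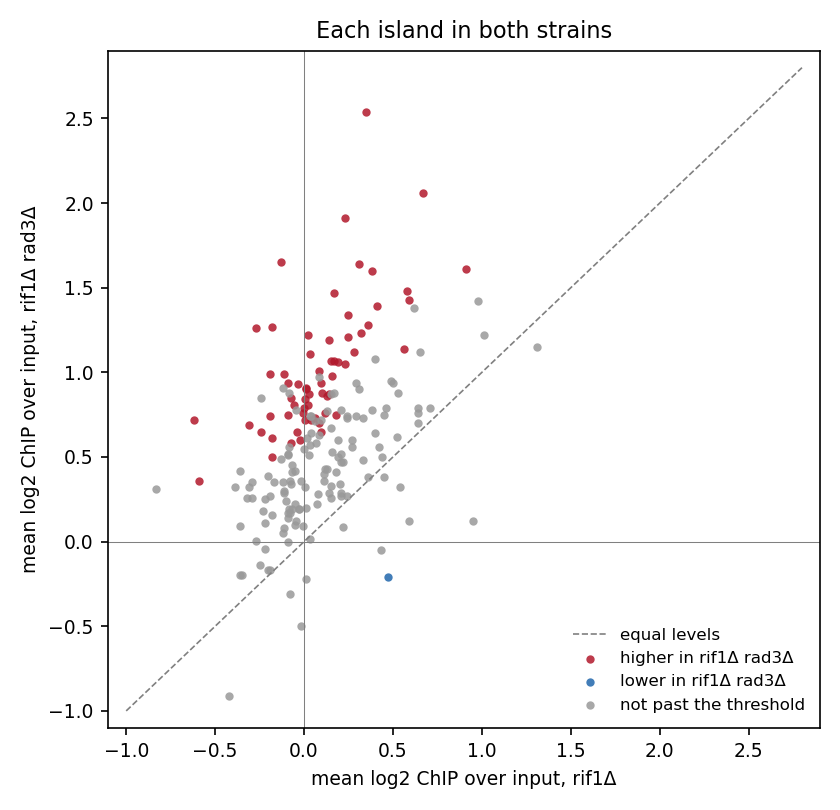
Each point is 1 of 198 islands, with its mean log2 ChIP over input in rif1Δ rad3Δ on the vertical axis and in rif1Δ on the horizontal axis. The 63 islands called higher in rif1Δ rad3Δ lie above the dashed line of equal levels, and the 1 called lower lies below it.

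The level also followed A+T content outside islands. Probes 10 kb or more from any island whose surrounding 500 bp held 72% A+T or more averaged 0.59 and 0.50 in rif1Δ rad3Δ, against 0.18 and -0.0046 in rif1Δ. Such probes with 62% to 64% A+T averaged -0.14 and -0.15 in rif1Δ rad3Δ, against -0.0061 and -0.052 in rif1Δ. Once the A+T trend of each array was removed, the difference between strains at islands was 0.084, 14 islands were called higher (7.07%, against 7.20% of all features) and 47 enriched in rif1Δ rad3Δ (23.7%, against 23.1%). Island probes were among those that set the trend, so its removal may also have taken out part of their own signal. Island signal and A+T content cannot be told apart by the island level alone. Just inside the threshold, the 67 islands whose best window held least A+T above it averaged 0.72 and 0.48 in rif1Δ rad3Δ, against 0.15 and -0.031 in rif1Δ. Just outside it, 47 regions whose best window fell short by the least averaged 0.65 and 0.40, against 0.20 and 0.024.

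The surroundings of islands were not symmetric. In rif1Δ rad3Δ, probes 1 to 5 kb to the right of an island, towards higher coordinates, averaged 0.26 and 0.22 on the 2 arrays, and probes 1 to 5 kb to the left averaged -0.19 and -0.24. In rif1Δ the right side averaged 0.062 and 0.10 and the left side -0.11 and -0.077. The sides did not overlap in either strain. The step, which is the right side minus the left, was 0.45 and 0.47 in rif1Δ rad3Δ, against 0.17 and 0.18 in rif1Δ. A+T content was 63.4% on the left and 63.1% on the right. This measure of the sides was chosen after the profile had been seen.

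**Figure D3:**
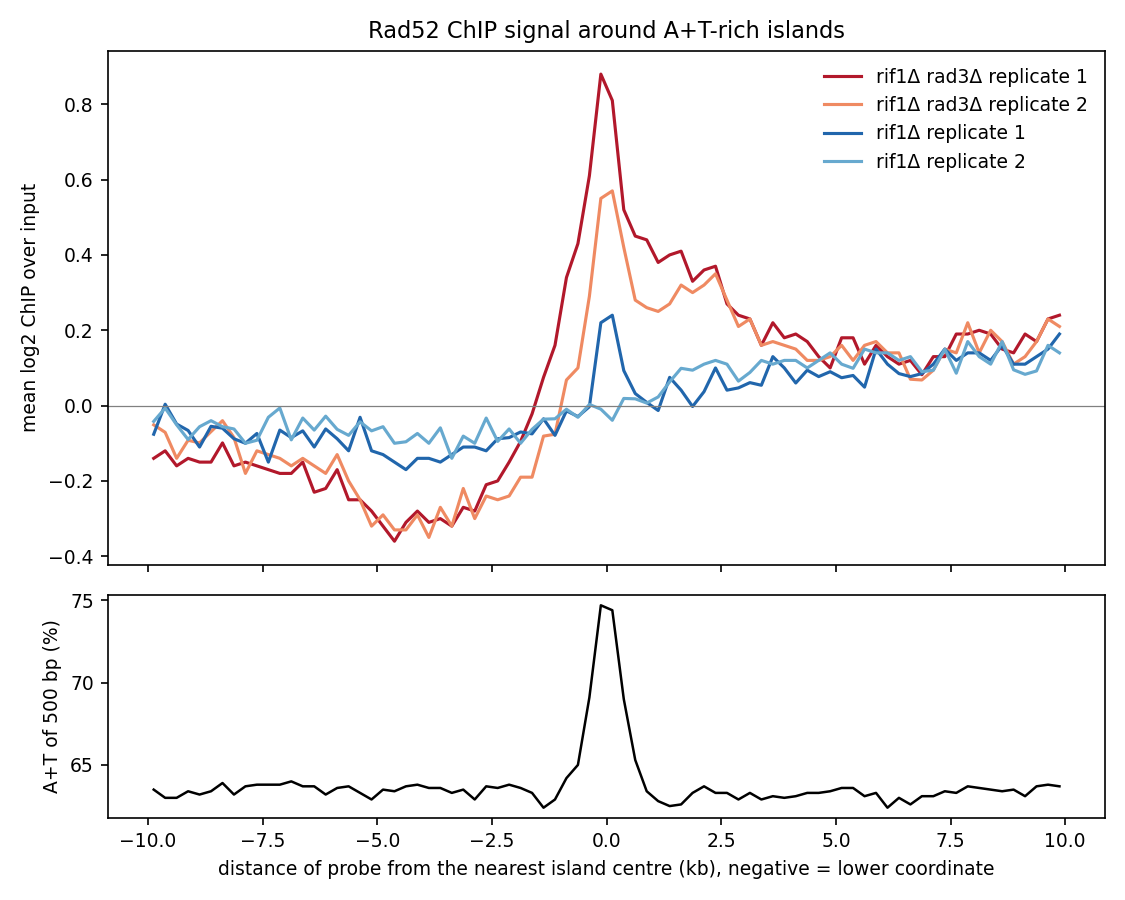
The upper panel shows mean log2 ChIP over input on each array by the distance of a probe from the nearest island centre, in bins of 250 bp, and the lower panel the A+T content of the 500 bp around these probes. Both rif1Δ rad3Δ arrays and replicate 1 of rif1Δ peak at the centre and replicate 2 of rif1Δ does not. Averages over 1 to 5 kb are above 0 on the right and below 0 on the left on all 4 arrays.

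The 2 sides changed with distance in different ways. On the right, signal in rif1Δ rad3Δ was 0.38 and 0.30 at 1 to 2.5 kb, 0.19 and 0.17 at 2.5 to 5 kb and 0.19 and 0.17 at 7.5 to 10 kb. On the left it was -0.035 and -0.17 at 1 to 2.5 kb, -0.29 and -0.29 at 2.5 to 5 kb and -0.14 and -0.095 at 7.5 to 10 kb. The lowest of these values thus lay 2.5 to 5 kb left of islands. In rif1Δ, values at 2.5 to 5 kb were 0.075 and 0.11 on the right and -0.13 and -0.085 on the left.

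Most islands shared the direction of the step. Of 226 islands with 4 or more probes on each side, 180 (79.6%) were higher on the right on both rif1Δ rad3Δ arrays and 27 (11.9%) were higher on the left on both. In rif1Δ these counts were 137 (60.6%) and 47 (20.8%). At 165 midpoints between islands 59 (35.8%) were higher on the right and 93 (56.4%) on the left in rif1Δ rad3Δ, against 46 (27.9%) and 66 in rif1Δ. A midpoint's left side lies right of an island and its right side left of the next, so its step is not independent of theirs. At 266 regions of 72% to 75% A+T away from islands these shares were 52.3% and 35.3% in rif1Δ rad3Δ, against 33.8% and 33.5% in rif1Δ. The step was larger on both rif1Δ rad3Δ arrays than on both rif1Δ arrays at 154 islands (68.1%) and smaller at 27, while it was larger at 47 midpoints (28.5%) and smaller at 72, and larger at 113 of the 266 regions (42.5%) and smaller at 75. By chromosome, the step in rif1Δ rad3Δ was 0.54 and 0.57 on I, 0.40 and 0.41 on II, and 0.40 and 0.39 on III.

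The step was mostly in the ChIP channel. ChIP signal was higher on the right by 0.57 and 0.58 in rif1Δ rad3Δ, against 0.27 and 0.25 in rif1Δ. Input signal was higher on the right by 0.11 and 0.12 in rif1Δ rad3Δ, against 0.10 and 0.071 in rif1Δ.

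Other points of the genome gave smaller or opposite steps. At 165 midpoints between islands 20 kb or more apart, the step was -0.078 and -0.034 in rif1Δ rad3Δ, against -0.021 and 0.013 in rif1Δ. Since the sides of islands still differed at 7.5 to 10 kb, an opposite step at midpoints may in part follow from their position. At 520 regions of 72% to 75% A+T that lay 10 kb or more from an island, it was 0.091 and 0.12 in rif1Δ rad3Δ, against 0.012 and 0.0023 in rif1Δ. At equal A+T, the right side of islands exceeded probes 10 kb or more away by 0.31 and 0.27 in rif1Δ rad3Δ, against 0.028 and 0.10 in rif1Δ. The left side differed from those probes by -0.15 and -0.20 in rif1Δ rad3Δ, against -0.14 and -0.065 in rif1Δ. The strand that each probe matches is not given in the sources used here, so its part in the step was not tested.

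**Figure D4:**
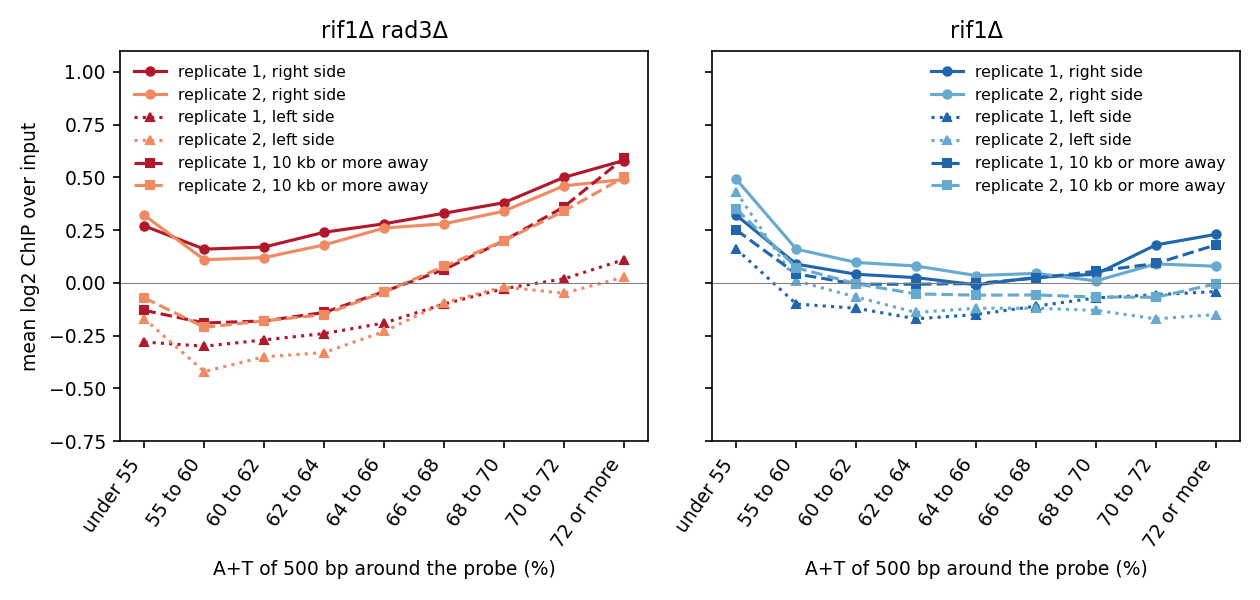
Mean log2 ChIP over input by the A+T content around the probe, for probes 1 to 5 kb right of an island (circles), 1 to 5 kb left (triangles) and 10 kb or more away (squares), with rif1Δ rad3Δ in the left panel and rif1Δ in the right panel. In rif1Δ rad3Δ the right side is above the distant probes in 8 of 9 A+T classes on each array and the left side in 0 of 9. In rif1Δ the right side is above them in 7 and 9 of 9 classes and the left side in 0 and 1.

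The step differed with the genes beside an island. Between tandem genes read to the right (52 islands) it was 0.60 and 0.65 in rif1Δ rad3Δ, against 0.26 and 0.30 in rif1Δ. Between tandem genes read to the left (48 islands) it was 0.34 and 0.29 in rif1Δ rad3Δ, against 0.0084 and -0.0064 in rif1Δ. Between divergent genes it was 0.49 and 0.50 in rif1Δ rad3Δ, against 0.18 and 0.18 in rif1Δ. Between convergent genes it was 0.21 and 0.27 in rif1Δ rad3Δ, against 0.22 and 0.23 in rif1Δ, and there the values of the strains overlapped.

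The level of the islands themselves varied with their place too. Islands between divergent genes averaged 0.88 and 0.51 in rif1Δ rad3Δ, against 0.20 and -0.043 in rif1Δ. Islands between convergent genes averaged 0.52 and 0.36 in rif1Δ rad3Δ, against 0.34 and 0.12 in rif1Δ. Of the islands tested, 34 of 101 between divergent genes, 26 of 76 between tandem genes and 3 of 21 between convergent genes were called higher by limma in rif1Δ rad3Δ, which is 33.7%, 34.2% and 14.3%, against 9.91% of all features. The difference between these classes was not tested.

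Levels were also set out by the distance to the next island and by nearby tRNA genes, rRNA genes or LTRs, and the differences between these classes were not tested. Islands with the next one 20 kb away or more averaged 0.89 and 0.62 in rif1Δ rad3Δ, against 0.22 and 0.034 in rif1Δ. Those with a neighbour within 5 kb averaged 0.65 and 0.31 in rif1Δ rad3Δ, against 0.20 and -0.044 in rif1Δ. The 43 islands with a tRNA gene, rRNA gene or LTR within 500 bp averaged 0.94 and 0.64 in rif1Δ rad3Δ, against 0.50 and 0.29 in rif1Δ. The 213 islands without such an element averaged 0.75 and 0.46 in rif1Δ rad3Δ, against 0.14 and -0.081 in rif1Δ.

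Among the 198 islands with 2 or more probes, the highest in rif1Δ rad3Δ lay between SPCC18B5.02C and wee1, which encodes the kinase that holds cells back from mitosis (chrIII:719501-720200). It was at 2.39 and 2.69 in rif1Δ rad3Δ, against 0.26 and 0.45 in rif1Δ. The groups were far apart, and the difference was 2.19 ± 0.18 (SE, limma's adjusted p = 0.00463), which is 4.55-fold. The run of 17 adenines shown above lies in this island.

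The island between abo2, which encodes an AAA ATPase, and nrk1 (chrII:1443101-1444000) was at 2.07 and 1.22 in rif1Δ rad3Δ, against 0.21 and -0.47 in rif1Δ. The difference was 1.78 ± 0.30 (limma's adjusted p = 0.0108), but 1 of its 3 probes was well above background on all arrays, and with normexp background correction the difference was 1.03. The island between snu13, which encodes a protein of small nuclear and nucleolar ribonucleoproteins, and arg82 (chrI:2041601-2042300) was at 1.89 and 1.92 in rif1Δ rad3Δ, against 0.38 and 0.082 in rif1Δ. The rif1Δ rad3Δ arrays lay close together there, and the difference was 1.68 ± 0.17 (limma's adjusted p = 0.00607).

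The island between mad1, a gene of the spindle checkpoint, and ptp4 (chrII:1277101-1277800) was high in both strains. It was at 2.14 and 1.98 in rif1Δ rad3Δ, against 0.58 and 0.76 in rif1Δ, and limma called it enriched in each (adjusted p = 6e-05 in rif1Δ rad3Δ and 0.0162 in rif1Δ). The difference was 1.38 ± 0.16. The other 4 of the 8 largest rises had differences from 1.33 to 1.53 and lay between myr1 and hrs1, a gene of meiotic microtubule organisation, between ltc2 and sec73, between pal2 and mde4, a kinetochore gene, and between SPBC32H8.15 and bem46. Of the 2 probes between myr1 and hrs1, and of the 2 between pal2 and mde4, 1 was well above background on all arrays. With normexp background correction neither passed, with differences of 0.46 and 0.49. The rise between pal2 and mde4 was also lost without replicate 1 of rif1Δ rad3Δ (limma's adjusted p = 0.0693) or replicate 2 of rif1Δ (0.0528), and with the A+T trend removed (0.87, limma's adjusted p = 0.0552). That beside bem46 was lost without replicate 2 of rif1Δ rad3Δ (limma's adjusted p = 0.055), with the A+T trend removed (0.80, 0.126) and at one spread (1.02, 0.0626). Beside bem46 the right side of the island reached 1.02 and 0.99 in rif1Δ rad3Δ, against -0.15 and 0.13 in rif1Δ, and the left side 0.24 and 0.056, against -0.13 and 0.21.

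The only island that limma called lower in rif1Δ rad3Δ lay between the convergent genes alr2 and aat1 (chrII:110701-111300). It was at -0.21 and -0.21 in rif1Δ rad3Δ, against 0.54 and 0.40 in rif1Δ. The groups did not overlap, and the difference was -0.68 ± 0.16 (limma's adjusted p = 0.0253). Between the same genes, the island at chrII:108801-109500 differed by -0.23 (limma's adjusted p = 0.583). The single-probe island at chrII:110101-110600 differed by -0.13 and was not tested. At an A+T threshold of 72%, the region of the lower call differed by -0.36 and did not pass (limma's adjusted p = 0.215). The call was lost without any 1 of the 4 arrays, with limma's adjusted p from 0.0517 to 0.0906.

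At 4 of the 5 enriched islands highest in rif1Δ, the difference between strains did not pass. Most islands did not pass either, since 63 of 198 were called higher (31.8%) and 1 lower (0.505%). These 5 were also picked by their rif1Δ level, which is subtracted in the difference. The island between tef3, which encodes a translation elongation factor, and SPCC417.09C (chrIII:1689101-1689700) had a tRNA gene nearby and was at 1.11 and 1.19 in rif1Δ rad3Δ, against 1.37 and 1.26 in rif1Δ. The difference of -0.16 ± 0.16 did not pass (limma's adjusted p = 0.485). The others lay between SPBP23A10.11C and frg1, between mde6 and ubr11, a gene of the N-end rule ubiquitin ligase, and between mug147 and SPBC56F2.05C. That beside SPBC56F2.05C was at 0.75 and 0.83 in rif1Δ rad3Δ, against 0.53 and 0.90 in rif1Δ. Its right side was at 1.48 and 1.42 in rif1Δ rad3Δ, against 0.042 and 0.23 in rif1Δ. Its left side was at 0.065 and -0.43, against -0.17 and -0.0073. With bright probes only, the island beside frg1 passed with a difference of 0.70 (limma's adjusted p = 0.0204) and that beside ubr11 with 0.65 (0.0202). The island beside ubr11 also passed without dye normalization (0.59, limma's adjusted p = 0.0297) and with the replicate number as a block (0.0409). Its difference was only 0.012 with the A+T trend removed (limma's adjusted p = 0.975) and 0.031 at one spread (0.944). With normexp it was 0.34 and did not pass either (limma's adjusted p = 0.273). The island between ucp3 and fnx1, which encodes a vacuolar amino acid transporter, was at 1.82 and 1.40 in rif1Δ rad3Δ, against 0.79 and 1.03 in rif1Δ, and its difference of 0.70 ± 0.19 passed (limma's adjusted p = 0.0404). That call was lost without replicate 1 of rif1Δ rad3Δ (0.49, limma's adjusted p = 0.167) and without either replicate of rif1Δ (0.133 and 0.0514). It was also lost with normexp (0.48, limma's adjusted p = 0.107), with arrays centred on the mode (0.69, 0.0647), with the A+T trend removed (0.25, 0.384) and at one spread (0.30, 0.382). The islands beside ubr11 and SPBC56F2.05C also had a tRNA gene within 500 bp, and that beside fnx1 an annotated rRNA gene. The island beside frg1 had no such element. A tRNA gene, rRNA gene or LTR lay within 500 bp of 43 of the 256 islands with a probe.

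**Figure D5:**
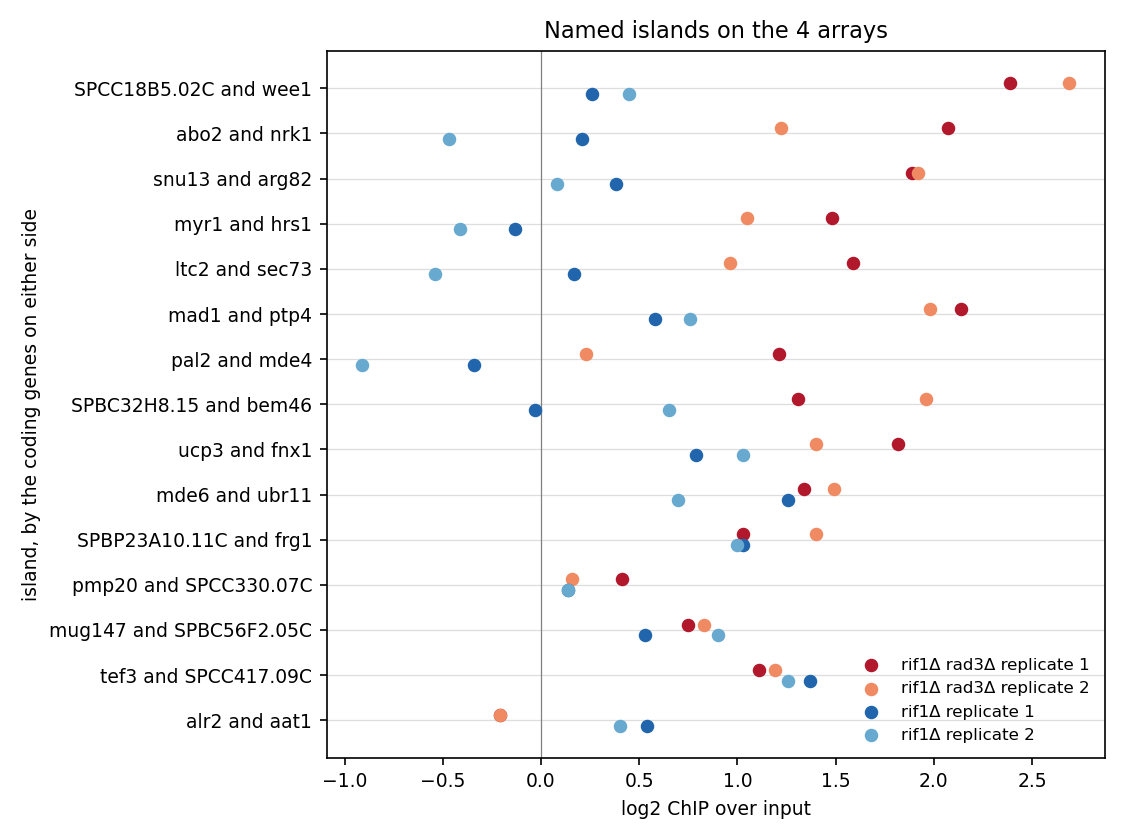
Log2 ChIP over input of the 15 named islands on each array, sorted by the difference between strains. The island between SPCC18B5.02C and wee1 is at the top with a difference of 2.19, and that between alr2 and aat1 at the bottom with -0.68.

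Islands near known origins were looked up by gene. The search of chromosome III began at 120000, so ura4, an orotidine phosphate decarboxylase gene beside the origin ars3002, lay outside it. The nearest island within the sequence searched lay 3626 bp away (chrIII:120201-120900) and need not be that of ars3002. It was at 0.41 and 0.16 in rif1Δ rad3Δ, against 0.14 and 0.14 in rif1Δ, and the difference of 0.15 ± 0.17 did not pass (limma's adjusted p = 0.548). No island lay within 10 kb of hus5, beside ars1.

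Replicates ranked islands more alike in rif1Δ rad3Δ than in rif1Δ. Across 198 islands, Pearson's r was 0.714 between the rif1Δ rad3Δ arrays and 0.289 between the rif1Δ arrays, where islands are not independent replicates. Over all 12120 features these values were 0.842 and 0.624. Spearman's correlations across islands were 0.683 and 0.267. Between same-numbered arrays of the 2 strains, Pearson's r across islands was 0.315 for replicate 1 and 0.487 for replicate 2. Both exceeded the value between the rif1Δ arrays at islands. Over all features they were 0.41 and 0.425.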

How the data were processed

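Per the labels' protocols, DNA was amplified and labelled by a published method; the molecule is entered there as RNA. Per the submitters' processing notes, arrays were read with Agilent Feature Extraction 10.7.3.1. The deposited scanner files give the authors' processed intensity of each channel, background-subtracted and dye-normalized, and per the file headers a log10 ratio of red over green. The deposited value table holds the ratio of ChIP over input without centring (column medians of 0.968 to 1.01), as a comparison with the scanner files showed. From these, log2 of ChIP (green) over input (red) processed intensity was computed and centred on each array's median. Control spots (2513), 97 outlier probes and the probes in the deleted rif1 and rad3 genes were left out. The array coordinates matched the reference ASM294v3 at an offset of 0 where islands were searched. Features were islands and 1 kb bins with 2 or more probes, fitted with limma 3.58.1 in R 4.3.3 (lmFit, eBayes, 1 mean per strain), with Benjamini-Hochberg adjustment over all features; the code was tested on simulated data. The number of arrays limits the precision. Slide could not be estimated as a random block, so within-slide values are given.

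Named islands are the 8 largest rises and falls among those past an adjusted p of 0.05 whose arrays do not overlap, the 5 highest enriched in each strain, and those within 10 kb of hus5 and ura4. Members, lists and tests were chosen with earlier results of these data known, and the sides of islands were measured separately after the profile had been seen. Alternatives changed the background correction, dye normalization, centring, loess, A+T trend, spread, dim probes, probes per feature, A+T threshold, replicate block and the arrays used.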

Additional observations from a re-analysis of the deposited data

How the results depend on the processing

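Counts are of islands enriched in rif1Δ rad3Δ, enriched in rif1Δ, higher in rif1Δ rad3Δ and lower in rif1Δ rad3Δ, which were 124, 11, 63 and 1. With the A+T trend removed, 47 were enriched in rif1Δ rad3Δ (23.7%, against 23.1% of all features). In the test between strains of the same islands, 14 were called higher (7.07%, against 7.2%) and 5 lower (2.53%, against 4.96%). The level in rif1Δ rad3Δ was then 0.12 and the difference between strains 0.084. The contrast of island centres with probes 8 to 10 kb away was 0.14 in rif1Δ rad3Δ and -0.0073 in rif1Δ. Without dye normalization that contrast was -0.0062 in rif1Δ. With normexp, 19 were enriched in rif1Δ (9.6%, against 5.81% of all features), 41 higher (20.7%, against 5.85%) and 2 lower (1.01%, against 6.98%). With loess, 20 were enriched in rif1Δ (10.1%, against 6.02%). With arrays scaled to one spread, 22 were enriched in rif1Δ (11.1%, against 6.82%) and 21 higher (10.6%, against 3.99%). At 72% A+T (912 regions tested) counts were 505, 46, 260 and 6. These are 55.4%, 5.04%, 28.5% and 0.658%, against 24.1%, 3.65%, 9.59% and 7.13% of all features. At 78% (32 tested) counts were 23, 3, 13 and 0. These are 71.9%, 9.38%, 40.6% and 0.0%, against 24.5%, 4.31%, 10.3% and 8.07% of all features. With a minimum of 1 probe, 2 were lower (0.781%, against 6.98%). With the replicate number as a block, 41 were enriched in rif1Δ (20.7%, against 11.5% of all features), 121 higher (61.1%, against 18.9%) and 6 lower (3.03%, against 18.6%). The labels do not say that numbers pair the arrays. Deviations of same-numbered arrays correlated at 0.332 over all features and at 0.395 over the 198 islands. Leaving out 1 array at a time gave 79 to 136, 6 to 18, 31 to 67 and 0 to 2 islands, levels of 0.49 to 0.78 in rif1Δ rad3Δ and -0.014 to 0.20 in rif1Δ, a difference of 0.40 to 0.69, and contrasts of 0.40 to 0.67 in rif1Δ rad3Δ and -0.039 to 0.095 in rif1Δ.

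The step between the sides of islands kept its direction in both strains under every alternative run, all of them chosen after seeing the data. In rif1Δ rad3Δ it was 0.41 with normexp, 0.43 without dye normalization, 0.44 with loess, 0.40 at one spread, 0.47 with bright probes only, 0.21 at 72% and 0.48 at 78% A+T, and 0.45 to 0.47 leaving out 1 array. In rif1Δ it was 0.18, 0.16, 0.19 and 0.21 under the first 4 of these, 0.17 with the A+T trend removed, 0.061 at 72% and 0.16 at 78% A+T, and 0.17 to 0.18 leaving out 1 array.

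For 15 named islands, 175 of 209 values kept direction and side of the threshold, 20 no longer passed, 4 passed only then and 10 changed sign. The difference between mug147 and SPBC56F2.05C was -0.10 with normexp, -0.038 with loess, -0.26 with the A+T trend removed, -0.18 at one spread and -0.11 to 0.26 leaving out 1 array. That between tef3 and SPCC417.09C was 0.018 without dye normalization and 0.040 with bright probes only. That between SPBP23A10.11C and frg1 was -0.34 with the A+T trend removed and -0.18 at one spread, and that between pmp20 and SPCC330.07C -0.34 with the A+T trend removed. The causes were not tested.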
